A study of Mus musculus with 59 samples.

Results

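The genes described here are 7 components of the Nodal pathway, chosen by symbol from the 24391 genes listed in every library: *Nodal* and *Gdf3*, which encode ligands, *Tdgf1* (Cripto), which encodes their co-receptor, *Lefty1*, *Lefty2* and *Cer1*, which encode secreted antagonists, and *Smad7*, which encodes an inhibitory SMAD inside the cell. All 7 symbols were found in all 59 libraries, and 34 other genes of the pathway were counted beside them.

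Nodal is a ligand of the TGF-beta superfamily. It binds activin receptors together with the co-receptor Cripto, and the receptors phosphorylate SMAD2 and SMAD3, which act with FOXH1 on their target genes. *Nodal*, *Lefty1* and *Lefty2* are themselves such targets, so the pathway feeds both an activating and an inhibiting loop. In the early mouse embryo it maintains the epiblast and patterns the primitive streak and the left side. Embryonic stem cells (ESCs) also produce Nodal and both Lefty proteins.

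Poly(A) RNA was sequenced from 6 conditional mouse ESC lines, each as ESCs and as embryoid bodies (EBs) and each with and without 4-hydroxytamoxifen (4-OHT). ESCs were kept in LIF and 3 kinase inhibitors on mouse fibroblast feeders, and EBs were cell aggregates grown in suspension for 2 days without LIF and inhibitors. Every line carried ERT2-Cre, a recombinase that 4-OHT switches on. The *Pcgf1* line had 4 libraries of untreated ERT2-Cre;Pcgf1f/f ESCs and 5 each of Pcgf1delta/delta ESCs, f/f EBs and delta/delta EBs. PCGF1 is the subunit that defines a variant Polycomb repressive complex 1 (PRC1). The other 5 lines had 2 libraries per group. In the Ring1pm line, untreated cells were ERT2-Cre;Ring1apm/pm;Ring1b and treated cells were Ring1apm/pm;Ring1bpm/pm, so the controls already carried the *Ring1a* point mutation. The *Ring1A/B* line was Ring1a-/- throughout, with Ring1bf/f turned into Ring1bdelta/delta. The last 3 lines were Pcgf2f/f;Pcgf4f/f, Pcgf3f/f;Pcgf5f/f and Pcgf6f/f, with delta/delta alleles after 4-OHT. Only mutant groups received 4-OHT, so the drug and the loss of the gene cannot be told apart. Nothing in the labels says that replicates came from separate cultures, and p-values then measure only the spread between these libraries.

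*Lefty1* and *Lefty2* are neighbours on chromosome 1 and near copies of each other, so some reads cannot be assigned to either. In GENCODE M1 on NCBIM37 (mm9), the build of the deposited values, *Lefty2* lies at chr1:182823239-182829234 and *Lefty1* at chr1:182865153-182868531, both on the plus strand. Their coding sequences are each 1107 bases long and differ at 90 bases, an identity of 91.9%. Of all 50-base windows of the *Lefty1* coding sequence, 26.6% occur unchanged in *Lefty2* (281 of 1058), and of all 75-base windows 16.7% do (173 of 1033). Over whole transcripts the shares are lower. At 50 bases they are 17.9% for *Lefty1* and 11.6% for *Lefty2*, and at 75 bases 11.2% and 7.21%. The study used these 2 read lengths, and it was not stated how reads matching both genes were counted. The pair below is the 75-base window of exon 1 in which they differ most, at 23 bases, set in capitals (chr1:182865291-182865365 in *Lefty1*, chr1:182823365-182823439 in *Lefty2*). Reads from such windows tell the genes apart.
Lefty1: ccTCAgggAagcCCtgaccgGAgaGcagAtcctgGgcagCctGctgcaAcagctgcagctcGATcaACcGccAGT
Lefty2: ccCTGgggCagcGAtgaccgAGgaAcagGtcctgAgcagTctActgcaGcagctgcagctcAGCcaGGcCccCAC

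Every library sums to 1000000 TPM, a transcript level scaled for gene length and library total that keeps no read depth, and lists between 6039 and 9139 genes at 0. In the *Pcgf1* line the targeted gene stood with the labels: *Pcgf1* was between 7.30 and 16.6 TPM in 9 control libraries and between 0.627 and 2.77 TPM in 10 KO libraries. In this line 7 pluripotency markers summed to 4498 to 5547 TPM in ESCs and to 1764 to 3213 TPM in EBs, and 5 epiblast markers to 43.9 to 131 TPM and to 407 to 3177 TPM. In the *Pcgf1* line the deposited names carry 1 series code for replicate 1, another for replicates 2 and 3 and 2 more among replicates 4 and 5, which are treated here as 1 series. Each of these 3 series holds all 4 groups. Among replicates 4 and 5 the codes cross the numbers for KO ESCs, where replicate 4 carries the code that replicate 5 has in both EB groups. Replicates 4 and 5 of a group were the most alike, with a median absolute log2 ratio of 0.0574 to 0.0884 between them over genes with a mean of at least 10 TPM, against 0.249 to 0.681 between series. A fit with both averaged into 1 sample, chosen after seeing the data, is therefore given where it ends a call.

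Within the *Pcgf1* control ESCs the order of the mean levels was *Tdgf1*, *Smad7*, *Nodal*, *Lefty2*, *Gdf3*, *Lefty1* and *Cer1*. *Tdgf1* stood far above the others, at 1342 ± 257 TPM (SD, n = 4) and rank 94 among all genes. *Smad7* through *Lefty1* followed between 94.3 and 50.3 TPM, and the values of each neighbouring pair in that stretch overlapped. In control EBs *Lefty1* moved to the second place with 292 ± 90.8 TPM (SD, n = 5), below *Tdgf1* with 775 ± 145 TPM and above *Lefty2* with 123 ± 10.2 TPM, with no overlap at either step. On mm9 *Nodal* lies at chr10:60880720-60888086 (plus strand), *Tdgf1* at chr9:110842114-110848662, *Gdf3* at chr6:122555421-122560105 and *Cer1* at chr4:82527655-82531052 (each on the minus strand). *Cer1* was last in every group of every line. It was listed at 0 in 51 of the 59 libraries and reached at most 0.213 TPM, so no fold change is read for it.

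**Figure D1:**
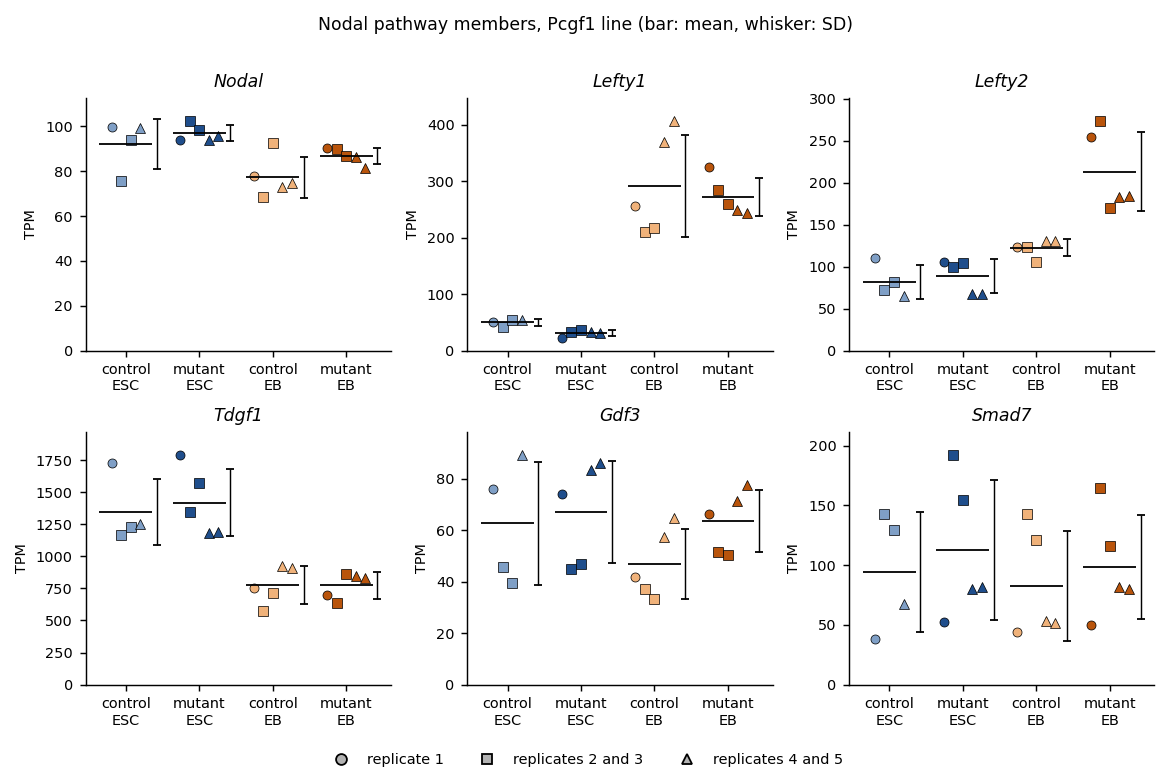
TPM of 6 members (y axis, linear from 0) in each library of the *Pcgf1* line by labelled group (x axis). Points are libraries, shaped by library series, black bars are group means and whiskers are SD (n = 4 or 5). *Lefty1* is at 22.7 to 54.5 TPM in all ESC libraries and at 209 to 407 TPM in all EB libraries, and *Smad7* is highest in replicates 2 and 3 of every group.

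The first question was how the pathway moves from ESCs to EBs while PCGF1 is present. Of 7 members, 2 rose and 1 fell (limma, adjusted p under 0.05), where 11.5% of the 20594 genes tested rose and 13.4% fell. The median log2 fold change of the 6 members other than *Cer1*, used for all medians over members here, was -0.22, against -0.0045 over all genes tested. *Lefty1* was at 50.9, 41.8, 54.5 and 54.2 TPM in control ESCs and at 256, 209, 217, 369 and 407 TPM in control EBs. No EB library came near an ESC library. *Lefty1* rose by 2.49 on the log2 scale (SE 0.19, 5.603-fold, adjusted p = 6.95e-08), and by 2.33, 2.16 and 2.84 within replicate 1, replicates 2 and 3, and replicates 4 and 5.

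*Lefty2*, which in the embryo marks the left lateral plate mesoderm, had a smaller change than its neighbour. Its levels were 110, 71.8, 81.2 and 64.5 TPM in control ESCs and 124, 123, 106, 130 and 131 TPM in control EBs. The groups overlapped through ESC replicate 1, which lay above EB replicate 3. *Lefty2* rose by 0.61 (SE 0.19, 1.52-fold, adjusted p = 0.0252). The call was lost without control ESC replicate 2, 3 or 4 (adjusted p = 0.0768, 0.0505 and 0.0888) and with replicates 4 and 5 averaged (adjusted p = 0.0528).

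*Tdgf1*, the co-receptor gene, fell. It was at 1724, 1162, 1227 and 1255 TPM in control ESCs and at 753, 574, 716, 924 and 909.5 TPM in control EBs. All EB libraries were below all ESC libraries. *Tdgf1* decreased by 0.79 on the log2 scale (SE 0.19, 0.576-fold, adjusted p = 0.00402), and the within-series values ran from -1.20 in replicate 1 to -0.45 in replicates 4 and 5.

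The ligand genes moved little and did not pass unless the replicate number entered the fit as a block or, for *Nodal*, certain libraries were left out. *Nodal* was at 99.9, 75.6, 93.8 and 99.2 TPM in control ESCs and at 77.8, 68.4, 92.6, 73.0 and 74.9 TPM in control EBs, and it was lower in the EB of 4 of 4 same-numbered pairs. Its log2 fold change was -0.25 (SE 0.11, adjusted p = 0.0994), and -0.24 with the replicate block (adjusted p = 0.0352). Without the block it passed when control ESC replicate 2 (-0.34, adjusted p = 0.0304) or control EB replicate 3 (-0.32, adjusted p = 0.0366) was left out. *Gdf3* was at 76.2, 45.7, 39.6 and 89.3 TPM in control ESCs and at 41.8, 37.4, 33.3, 57.3 and 64.7 TPM in control EBs. The ESC levels of *Gdf3* split by series, with replicates 2 and 3 lowest, and the EB was again lower in 4 of 4 pairs. Its log2 fold change was -0.38 (SE 0.27, adjusted p = 0.354), and -0.49 with the replicate block (adjusted p = 0.00138). With the block, 5 of 7 members were called in this comparison in place of 3.

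*Smad7*, which blocks the receptors' signal, did not separate the stages. It was at 37.8, 143, 130 and 67.2 TPM in control ESCs and at 43.8, 143, 121, 53.6 and 51.3 TPM in control EBs. Replicates 2 and 3 were highest in every group of the line, between 116 and 192 TPM, against 37.8 to 82.1 TPM in the other series. The log2 fold change was -0.18 with a 95% confidence interval from -1.18 to 0.82. This interval is from the fit without the replicate block, so it also holds the difference between series. With the block the value was -0.10 (limma, adjusted p = 0.471).

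Of the 33 other pathway genes tested, 4 rose and 6 fell in control EBs, and the median of the 33 log2 fold changes was -0.10. *Inhba*, an activin subunit, fell by 2.82 on the log2 scale (SE 0.39), and *Pcsk6*, a convertase that cleaves the Nodal precursor, fell by 2.39 (SE 0.32). Among targets of the pathway, *Gsc* fell by 2.497 and *Eomes* fell by 2.06. Other cell types' markers moved at the same step. The summed level of 8 fibroblast markers lay between 194 and 283 TPM in control ESCs and between 24.3 and 45.5 TPM after EB formation, with 5 of 8 lower and 2 of 8 higher and *Lum* at 0.273 TPM or below throughout. For 8 endoderm markers the sums were 14.4 to 25.96 TPM and 15.02 to 27.4 TPM, and *Afp* was at 0 in all control EBs. The part of the feeder cells in the ESC values was not tested. In bulk RNA, fewer cells of a type and less RNA per cell cannot be told apart.

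The same step was then read in *Pcgf1*-KO cells. Again *Lefty1* and *Lefty2* rose and *Tdgf1* fell, 3 of 7 members, where 8.13% of genes rose and 10.2% fell. The median over the 6 members was -0.09 on the log2 scale, against 0 over all genes. *Lefty1* went from 22.7, 33.4, 36.6, 32.6 and 30.98 TPM in KO ESCs to 326, 284, 259, 248 and 244 TPM in KO EBs. This was a rise of 3.13 on the log2 scale (SE 0.18, 8.74-fold, adjusted p = 2.92e-09). *Lefty2* went from 106, 99.8, 105, 67.2 and 67.8 TPM to 254, 274, 170.1, 183 and 184 TPM, with no overlap. It rose by 1.26 (SE 0.18, 2.40-fold, adjusted p = 6.37e-05).

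*Tdgf1* decreased by 0.86 on the log2 scale in KO cells (SE 0.18, adjusted p = 0.00177), from 1185 to 1789 TPM in ESCs to 633 to 862 TPM in EBs. The calls of *Lefty1*, *Lefty2* and *Tdgf1* in KO cells held under all 18 alternatives run. *Nodal* was below its ESC level in the EB of 5 of 5 pairs and its groups did not overlap, but the log2 difference of -0.16 (SE 0.10) was not called (adjusted p = 0.341). *Gdf3* differed by -0.05, with a confidence interval from -0.59 to 0.49, and *Smad7* by -0.14, with one from -1.08 to 0.80. Both intervals come from the fit without the replicate block and also hold the difference between series. With the block neither was called (limma, adjusted p = 0.760 and 0.270). Of 33 other pathway genes, 5 rose and 8 fell. *Lhx1* rose by 2.23, *Inhba* fell by 3.08, *T* fell by 2.497 and *Fst*, which binds activin, fell by 2.41. The median over the 33 was -0.05.

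**Figure D2:**
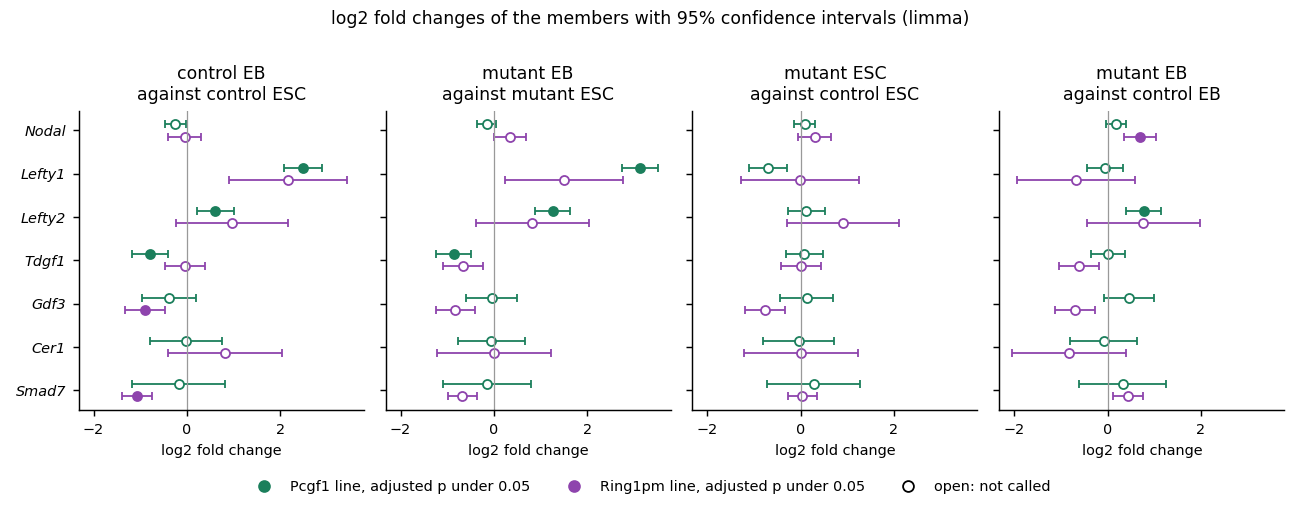
log2 fold changes (x axis) of the 7 members (y axis) in 4 comparisons, with 95% confidence intervals, in the *Pcgf1* line (green) and the Ring1pm line (purple). Filled points passed an adjusted p of 0.05 in the limma fit without the replicate block. *Lefty1* has the largest value in both EB-against-ESC panels, at 2.49 and 3.13 in the *Pcgf1* line and 2.16 and 1.498 in the Ring1pm line, and is filled in the *Pcgf1* line.

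Loss of PCGF1 was next compared at each stage. In ESCs none of 7 members was called by limma, where 0.32% of genes rose and 0.32% fell, and 1 member had an unadjusted p under 0.05. The median over the 6 members was 0.10, and -0.0232 over all genes. The one with the low p was *Lefty1*. Its 5 KO libraries, between 22.7 and 36.6 TPM, all lay below its 4 control libraries, between 41.8 and 54.5 TPM, and it was lower in 4 of 4 pairs. The log2 fold change was -0.70 (SE 0.19, 0.618-fold, adjusted p = 0.131). With the replicate block it was -0.73 (adjusted p = 0.0385). Within series it was -1.16, -0.45 and -0.77.

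*Nodal*, *Lefty2*, *Tdgf1*, *Gdf3* and *Smad7* overlapped between KO and control ESCs. Their log2 fold changes lay between 0.08 and 0.28. The widest interval was that of *Smad7*, from -0.72 to 1.28, and the narrowest that of *Nodal*, from -0.14 to 0.31. *Smad7* was nevertheless higher in the KO library of 4 of 4 pairs, by 0.25 to 0.46 on the log2 scale. With the replicate block its value was 0.36 (limma, adjusted p = 0.0522). The interval above comes from the fit without the block, so it also holds the difference between series. None of the 33 other pathway genes was called, with 6 at an unadjusted p under 0.05.

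In EBs, *Lefty2* was the member that differed, 1 of 7, where 1.08% of genes rose and 0.874% fell. Higher genes made up 55.2% of all calls here, and 66.7% with quantile normalization. The median was 0.25 over the 6 members and -0.0280 over all genes. *Lefty2* lay between 106 and 131 TPM in control EBs and between 170.1 and 274 TPM in KO EBs, so each KO library exceeded each control library, and it was higher in 5 of 5 pairs. *Lefty2* rose by 0.77 on the log2 scale (SE 0.18, 1.71-fold, adjusted p = 0.0320). The value was 1.04 in replicate 1, 0.92 in replicates 2 and 3 and 0.49 in replicates 4 and 5. With the replicate block the adjusted p was 0.00302. Without the block it was between 0.0527 and 0.0833 when control EB replicate 1, 2 or 3 or KO EB replicate 1, 2, 4 or 5 was left out, and between 0.0247 and 0.0481 without each of the other 3 libraries. It was 0.0577 with median-of-ratios scaling, 0.0532 with quantile normalization, 0.0624 with only the EB groups and 0.0928 with replicates 4 and 5 averaged, so the call depended on these settings while the value stayed between 0.68 and 0.85.

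*Lefty1*, in contrast, overlapped between the EB groups, with a log2 fold change of -0.05 and a confidence interval from -0.43 to 0.33. It was higher in the KO for replicates 1, 2 and 3 and lower for replicates 4 and 5, where the 2 control EB libraries had the highest *Lefty1* levels of the line. *Gdf3* was at 66.5, 51.7, 50.6, 71.4 and 77.6 TPM in KO EBs and was higher than its paired control in 5 of 5 pairs. Its log2 fold change of 0.46 (SE 0.26) was not called (adjusted p = 0.549) but passed with the replicate block (adjusted p = 0.00670). *Smad7* was at 50.1, 165, 116, 82.0 and 79.9 TPM in KO EBs, higher in 4 of 5 pairs. Its log2 fold change of 0.32 (SE 0.45, adjusted p = 0.914) likewise passed only with the block (adjusted p = 0.0431), which called 3 of 7 members. *Nodal* (0.18, interval -0.04 to 0.39) and *Tdgf1* (0.01, interval -0.36 to 0.38) were called in neither fit.

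The level of *Lefty1* relative to *Lefty2* within a library does not depend on scaling. It was below 1 in 9 of 9 ESC libraries and above 1 in 10 of 10 EB libraries of the *Pcgf1* line. In EBs the ratio was 1.70 to 3.12 in controls and 1.04 to 1.53 in KO, with no overlap. In ESCs it was 0.461 to 0.840 in controls and 0.215 to 0.485 in KO, with a narrow overlap. The ratio was computed after the values were seen and was not tested, and neither was the part of the reads that both genes share.

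Among the 33 other pathway genes, 2 rose in KO EBs and none fell. The median over the list was -0.02. *Pcsk6* rose by 1.93 (SE 0.30, adjusted p = 0.00272) and *Eomes*, a T-box factor of the primitive streak, rose by 1.70 (SE 0.32, adjusted p = 0.00831). Marker lists moved as well: 3 of 8 endoderm markers and 1 of 4 streak markers, *Eomes* itself, were higher, and 1 of 8 fibroblast markers was lower. Of 7 pluripotency markers 1 was higher, and of 5 epiblast markers none was called. The epiblast sum ranged from 1117 to 3177 TPM in control EBs and from 407 to 1957 TPM in KO EBs. The endoderm sum ranged from 15.02 to 27.4 TPM without and from 19.7 to 42.2 TPM with the deletion, *Afp* being at 0 in both groups, and the fibroblast sum ranged from 24.3 to 45.5 TPM and from 7.64 to 13.9 TPM. The part of such cells in the *Lefty2* value was not tested.

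Whether the effect of the loss differed between EBs and ESCs was tested as an interaction. None of 7 members passed, where 0.00486% of all genes, 1 gene, did. *Lefty1* (0.64, SE 0.26) and *Lefty2* (0.65, SE 0.26) had unadjusted p-values of 0.0260 and 0.0227 and adjusted p-values of 0.745 and 0.742. The intervals of these differences ran from 0.09 to 1.20 and from 0.10 to 1.21.

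The Ring1pm line replaces RING1B with a point-mutant form in cells that already carry mutant RING1A. RING1A and RING1B are the ubiquitin ligases of PRC1. *Rnf2*, the gene of RING1B, was at 66.6 to 85.8 TPM in controls and 54.5 to 64.6 TPM in mutants, which does not check a point mutation. In this line the median gene moved by 0.12 in mutant against control ESCs and by 0.10 in EBs on the log2 scale, and another scaling (median-of-ratios) shifted the median gene by -0.14 and -0.13 and quantile normalization by -0.19 and -0.16, so small mutant-against-control changes of this line depend on the scale. Higher genes made up 83.1% of all calls in mutant EBs, 68.2% with median-of-ratios scaling and 61.7% with quantile normalization. In mutant ESCs they made up 92.2%, 85.4% and 80.7% in the same order.

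From control ESCs to control EBs of the Ring1pm line 2 of 7 members fell and none rose, where 2.73% of the 20279 genes tested rose and 2% fell. The median over the 6 members was -0.05. *Smad7* had 76.1 and 91.7 TPM as ESC levels and 39.4 and 39.9 TPM as EB levels. It decreased by 1.07 on the log2 scale (SE 0.13, 0.475-fold, adjusted p = 0.00759). *Gdf3* had 167 and 124 TPM as ESC levels and 83.2 and 72.1 TPM as EB levels, and decreased by 0.89 (SE 0.18, 0.538-fold, adjusted p = 0.0388). Neither pair of groups overlapped. *Smad7* kept its call without ESC replicate 1 (adjusted p = 0.0361) and lost it without each of the other 3 libraries (0.0525 to 0.0698), and *Gdf3* lost it without any 1 library (adjusted p 0.0768 to 0.232).

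*Lefty1* was higher in the EB of both replicates of this line, from unequal starts. It was at 38.0 and 127 TPM in control ESCs and at 272 and 356 TPM in control EBs, without overlap. The log2 fold change was 2.16 (SE 0.54, 4.47-fold, adjusted p = 0.0726). *Lefty2* was at 103 and 323 TPM in control ESCs and at 301 and 423 TPM in control EBs, with overlap, and its log2 fold change was 0.96 (SE 0.52, adjusted p = 0.350). For both genes replicate 2 exceeded replicate 1 in each of the 4 groups of the line. *Nodal* (-0.05) and *Tdgf1* (-0.05) overlapped between the stages, with intervals from -0.40 to 0.30 and from -0.47 to 0.38. Of 33 other pathway genes, *Skil* (2.25) and *Tgif2* (0.85), both repressors of SMAD signalling, rose, and *Inhbb* (-2.37) and *Pcsk6* (-1.23) fell. The list's median was 0.09.

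**Figure D3:**
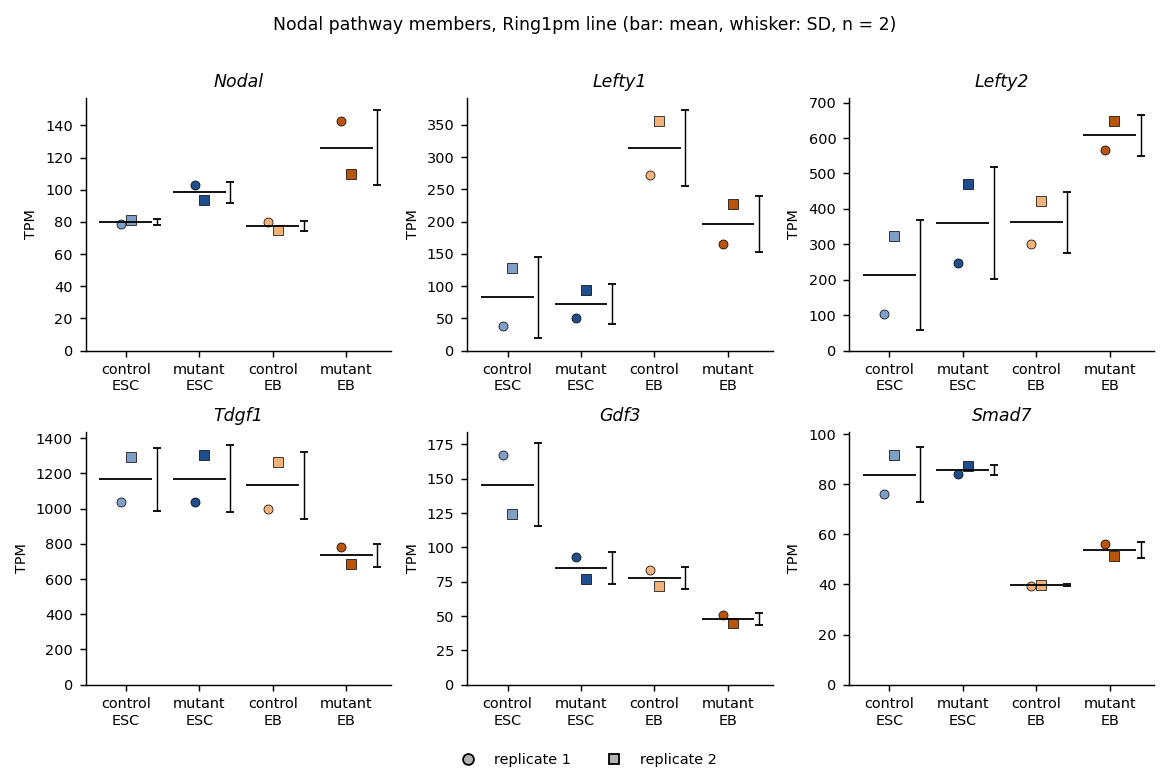
TPM of 6 members (y axis, linear from 0) in each library of the Ring1pm line by labelled group (x axis). Points are libraries, shaped by replicate number, bars are means and whiskers are SD of 2 libraries. *Nodal* is highest in the mutant EBs, at 143 and 110 TPM, and *Smad7* is lowest in the control EBs, at 39.4 and 39.9 TPM.

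In mutant cells of the Ring1pm line none of 7 members was called between EBs and ESCs by limma, where 0.0493% of genes rose and 0.0838% fell (37% of 27 calls higher, 48.3% with median-of-ratios scaling and 52.4% with quantile normalization), and 5 members had an unadjusted p under 0.05. An unadjusted p under 0.05 was also found for 1974 of all 20279 genes tested. Groups did not overlap for any member but *Cer1*. With 2 libraries against 2 this often happens without a change, and the share over all genes was not counted. *Lefty1* was at 49.8 and 94.5 TPM in ESCs and 166 and 227 TPM after 2 days as EBs, a log2 fold change of 1.498 (SE 0.54, adjusted p = 0.452). *Tdgf1* was at 1035 and 1305 TPM in ESCs and stood at 780.4 and 688 TPM in EBs, a log2 fold change of -0.67 (SE 0.18, adjusted p = 0.300). *Gdf3* (-0.82), *Smad7* (-0.67), *Lefty2* (0.83) and *Nodal* (0.35) had adjusted p-values between 0.167 and 0.616. None of the 33 other pathway genes was called, with 5 at an unadjusted p under 0.05.

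Mutant against control, none of 7 members was called by limma in ESCs, where 2.34% of genes rose and 0.197% fell, and 1 member had an unadjusted p under 0.05. The lowest p belonged to *Gdf3*, which was at 93.002 and 76.9 TPM in mutant ESCs, below both controls, with a log2 fold change of -0.77 (SE 0.18, 0.587-fold, adjusted p = 0.0775). *Lefty2* was at 248 and 471 TPM in mutant ESCs, a log2 fold change of 0.90 with an interval from -0.30 to 2.10. *Tdgf1* and *Smad7* differed by 0.00 and 0.04, with intervals of -0.42 to 0.43 and -0.28 to 0.35, both below the 0.12 of the median gene. *Nodal* was at 103 and 93.7 TPM, above both controls (0.29, SE 0.15, adjusted p = 0.393), and *Lefty1* overlapped (-0.02, interval -1.29 to 1.24). None of the other 33 pathway genes was called, with 8 at an unadjusted p under 0.05.

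In EBs *Nodal* rose in the mutant, 1 of 7 members, where 3.76% of genes rose and 0.764% fell. The median was -0.09 over the 6 members, 3 of which were above and 3 below 0, and 0.10 over all genes. *Nodal* was at 79.8 and 75.1 TPM in control EBs and at 143 and 110 TPM in mutant EBs. *Nodal* rose by 0.69 on the log2 scale (limma, SE 0.15, 1.61-fold, adjusted p = 0.0480), and both mutant libraries lay above both controls. The value was 0.56 with median-of-ratios scaling (adjusted p = 0.161) and 0.64 with quantile normalization (adjusted p = 0.0723), and between 0.50 and 0.88 without 1 library (adjusted p 0.0575 to 0.174). With only the EB groups in the fit the adjusted p was 0.136.

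Of the other members in the EBs of this line, *Gdf3* was at 50.8 and 45.0 TPM and *Tdgf1* at 780.4 and 688 TPM in mutants, each below both controls. Their log2 fold changes were -0.70 (SE 0.18, adjusted p = 0.0794) and -0.62 (SE 0.18, adjusted p = 0.106). *Smad7* was at 55.96 and 51.5 TPM, above both controls (0.44, SE 0.13, adjusted p = 0.119). *Lefty2* was at 567 and 648 TPM, above both controls (0.77, SE 0.52, adjusted p = 0.461), and *Lefty1* at 166 and 227 TPM, below both (-0.68, SE 0.54, adjusted p = 0.530). The ratio of *Lefty1* to *Lefty2* was 0.842 and 0.905 in control EBs and 0.292 and 0.350 in mutant EBs, and below 1 in all 8 libraries of the line.

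Among the other 33 pathway genes in these EBs, *T* (2.88), *Pcsk6* (1.65) and *Inhbb* (1.28) rose in the mutant and *Skil* (-1.30) fell, with a list median of 0.33. The summed level of each of the 5 marker lists differed between these EB groups without overlap. Of 5 epiblast markers 3 were lower, with sums of 477 to 707 TPM in controls and 158 to 183 TPM in mutants. Of 7 pluripotency markers 2 were higher (2805 to 2947 TPM against 3245 to 3407 TPM), and of 4 streak markers 1, *T*, was higher (7.54 to 11.8 TPM against 19.6 to 24.0 TPM). In addition 3 of 8 fibroblast and 2 of 8 endoderm markers were higher. The sums were 30.1 to 33.8 TPM in control and 72.4 to 72.8 TPM in mutant EBs for fibroblasts, and 18.7 to 22.9 TPM and 44.3 to 47.2 TPM for endoderm. The part of such cells in the members' values was not tested. In the interaction of mutation and stage none of 7 members passed, where 0.00986% of genes, 2 genes, did, and 1 member, *Tdgf1* (-0.62, SE 0.26), had an unadjusted p under 0.05 (adjusted p = 0.906).

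The remaining 4 lines carry a doubt about their groups. In 21 of their 32 libraries the condition in the deposited name differs from that in the sample label. Groups were kept as labelled, no direction was tested, and a single F test asked whether the labelled groups differ. In all of these lines except the *Ring1A/B* line, every labelled group mixes libraries of different named conditions. If the names are right, differences between conditions then fall within groups, where the F test counts them as spread. A failure to pass in those lines therefore cannot tell whether conditions differ. By label, the targeted genes of these 4 lines overlapped between control and mutant libraries, and *Pcgf6* in the Pcgf6f/f line went against the labels: libraries labelled control held 34.7 to 91.5 TPM and libraries labelled mutant 37.0 to 105 TPM, while by deposited name controls held 67.1 to 105 TPM and mutants 34.7 to 46.3 TPM. *Bmi1* (Pcgf4) in the Pcgf2f/f;Pcgf4f/f line was at 4.12 to 5.47 TPM in libraries named control and at 7.01 to 10.03 TPM in those named mutant, the opposite order. *Rnf2* in the *Ring1A/B* line was at 62.9 to 78.2 TPM in libraries named control and at 78.1 to 95.1 TPM in those named mutant, with a narrow overlap. *Pcgf5* in the line that deletes it was at 21.33 to 24.7 TPM in libraries named control. It was at 15.6 to 21.30 TPM in those named mutant. By name *Pcgf2*, *Pcgf3* and *Ring1* overlapped. The targeted genes thus settled neither the labels nor the names. The epiblast markers of the *Ring1A/B* line, given below, followed the stage in the names. In the other lines the summed level of 5 epiblast markers split every labelled group that mixes ESC and EB names. The lower and the higher library of such groups were at 78.3 to 93.9 and 956 to 1122 TPM in the Pcgf2f/f;Pcgf4f/f line. They were at 75.4 to 93.6 and 677 to 773 TPM in the Pcgf6f/f line, and at 64.7 to 69.8 and 427 to 676 TPM in the Pcgf3f/f;Pcgf5f/f line.

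In the *Ring1A/B* line all 6 members tested passed the F test, where 71% of 20344 genes did, and *Cer1* was listed at 0 throughout. The 2 libraries of a group were nearly alike, with a median absolute log2 ratio of 0.0602 to 0.0734, and the F test measures groups against that small spread. *Lefty2* was at 152 and 153 TPM in libraries labelled control ESC, 125 and 125 TPM in those labelled mutant ESC, 182 and 173 TPM in those labelled control EB and 529 and 562 TPM in those labelled mutant EB (adjusted p = 9.45e-08). The libraries labelled mutant EB stood apart, and their deposited names give the same condition.

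*Lefty1* in the *Ring1A/B* line was at 110 and 108 TPM in libraries labelled control ESC, 322 and 312 TPM in those labelled mutant ESC, 55.99 and 65.5 TPM in those labelled control EB and 266 and 279 TPM in those labelled mutant EB. The deposited names swap the middle pair: libraries labelled mutant ESC are named control EB and libraries labelled control EB are named mutant ESC. By name, then, both EB groups lay above both ESC groups for *Lefty1*, and by label they did not. The summed level of 5 epiblast markers split the same way. It was 1056 to 1103 TPM in libraries labelled mutant ESC and 422 to 429 TPM in those labelled mutant EB. It was 83.4 to 86.4 TPM in those labelled control ESC and 126 to 131 TPM in those labelled control EB. Whether stage follows the names was not tested. *Nodal* and *Smad7* were lowest in the libraries labelled mutant ESC (named control EB), at 43.2 and 42.6 TPM and at 32.4 and 28.1 TPM, against 74.2 to 115 TPM and 84.2 to 107 TPM in the other libraries. *Tdgf1* was lowest in the libraries labelled mutant EB, at 519.5 and 515 TPM, against 848 to 1247 TPM elsewhere. *Gdf3* ranged from 36.2 to 64.9 TPM. Of 33 other pathway genes, 31 passed the F test in this line.

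**Figure D4:**
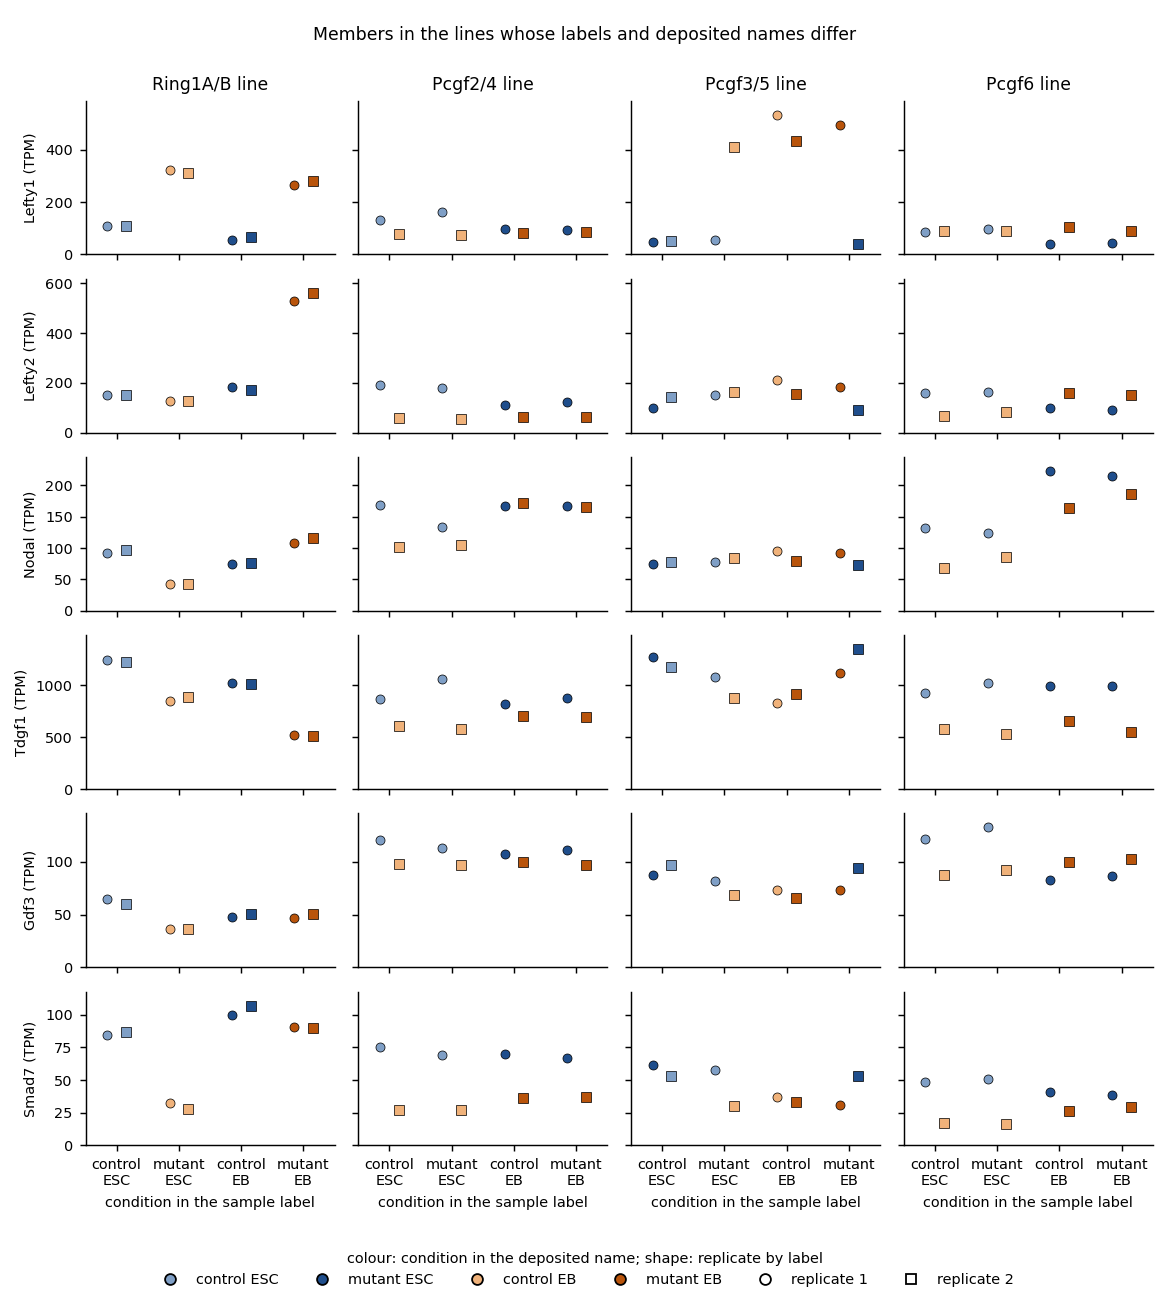
TPM of 6 members (rows, y axes linear from 0) in the 8 libraries of each of 4 lines (columns), placed by the condition in the sample label (x axis) and coloured by the condition in the deposited name, with circles for replicate 1 and squares for replicate 2. Colour and place differ in 21 of 32 libraries, and in the Pcgf3f/f;Pcgf5f/f line *Lefty1* is at 410.1 to 535 TPM in 4 libraries with an EB name and at 41.5 to 56.5 TPM in 4 with an ESC name.

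In the Pcgf3f/f;Pcgf5f/f line none of 7 members passed the F test, where 0.0852% of genes did. One member, *Tdgf1*, had an unadjusted p under 0.05. *Lefty1* split the libraries into a group at 41.5, 48.5, 52.3 and 56.5 TPM and a group at 410.1, 432, 493 and 535 TPM. By label the high group held 3 EB libraries and 1 ESC library, and by deposited name 4 EB libraries. *Smad7* was at 30.5 to 37.0 TPM in the libraries with high *Lefty1* and at 53.0 to 61.5 TPM in those with low *Lefty1*. Across this line *Nodal* ranged from 73.6 to 95.4 TPM, *Lefty2* from 89.1 to 209.8 TPM, *Gdf3* from 65.6 to 96.8 TPM and *Tdgf1* from 832 to 1349 TPM.

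In the Pcgf2f/f;Pcgf4f/f line none of 7 members passed, where 0% of 19250 genes did and 242 genes, none of them a member, had an unadjusted p under 0.05. Every labelled group of this line mixed ESC and EB names. In the libraries labelled control ESC, for example, 5 epiblast markers summed to 80.0 and 998 TPM. *Lefty1* stayed within 76.0 to 163 TPM and *Lefty2* within 54.6 to 192 TPM. *Smad7* was at 27.4, 27.5, 36.5 and 37.3 TPM in 4 libraries and at 66.8, 69.5, 70.2 and 75.02 TPM in the other 4. The lower 4 were the libraries labelled replicate 2, and by deposited name they were the 4 EB libraries. *Nodal* ranged from 101 to 172 TPM, *Gdf3* from 96.9 to 120.4 TPM and *Tdgf1* from 581 to 1062 TPM.

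In the Pcgf6f/f line none of the 6 members tested passed, where 0% of 19695 genes did and 931 genes, *Nodal* among them, had an unadjusted p under 0.05. *Nodal* was at 67.9, 85.5, 123 and 132 TPM in libraries labelled ESC and at 164, 187, 215 and 223 TPM in libraries labelled EB. By name the libraries at 67.9 to 132 TPM are all controls and those at 164 to 223 TPM all mutants. Both of the 2 highest libraries are named mutant ESC and both of the 2 lowest control EB. *Pcgf6* itself splits the same libraries. The summed level of 5 epiblast markers split them otherwise. In each labelled group the lower library was at 75.4 to 93.6 TPM and the higher at 677 to 773 TPM. Whether *Nodal* here follows stage or the deletion was not tested. *Lefty1* was at 41.6 to 106 TPM, *Lefty2* at 65.9 to 161 TPM, *Gdf3* at 83.2 to 133 TPM, *Smad7* at 16.8 to 50.6 TPM and *Tdgf1* at 533 to 1020.4 TPM. None of the 33 other pathway genes passed in these 3 lines, with 1, 0 and 1 at an unadjusted p under 0.05 in the order the lines are given.

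For each member the 3 genes with the most similar pattern over the 19 libraries of the *Pcgf1* line were listed, out of 13399 genes with a mean of at least 1 TPM. These are descriptions over libraries that share stage, series and state. *Lefty1* was most like *2610037D02Rik* (Pearson r = 0.98), *Mettl20* (0.97) and *Slc7a3* (0.96), with r of 0.56, 0.88 and 0.26 over the 8 Ring1pm libraries. *Smad7* was most like *Git1*, *Ap3d1* and *Rnf40* (each 0.98), with r of 0.47, 0.76 and 0.83 in the Ring1pm line. *Tdgf1* was most like *Stk3*, *Galnt1* and *Necap1* (each 0.94), with 0.17, 0.08 and 0.22. *Gdf3* was most like *Gpx1*, *Cox4i1* and *Tk1* (each 0.92), with 0.52, -0.31 and 0.20. *Lefty2* was most like *Optn* (0.89), *Bnc2* (0.88) and *Uba2* (0.87), with 0.55, -0.14 and -0.88. *Nodal* had the lowest such values of the 6 members, with *Rnase4* and *Apmap* at 0.82 and *Sh2d4a* at 0.81, and 0.02, 0.34 and 0.22 in the Ring1pm line. Of these 18 pairs, *Lefty1* with *Mettl20* had the highest r in the Ring1pm line.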

How the data were processed

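The authors aligned single-end reads with STAR (version 2.5.2b) to UCSC mm9 and counted them on exons, and the deposited values are TPM for each gene symbol. The step from counts to TPM was not given in the sources used here. The authors' own fold changes used DESeq2 and were not used. Depth is unknown, so no counting interval is given, and no 2 of the 59 libraries held identical values.

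Libraries were grouped by sample labels. Values were tested as log2(TPM + 0.1) by limma 3.58.1 under R 4.3.3, each line having its own model of 4 groups, with a variance trend, genes above 0 TPM in at least 1 library, two-sided tests and Benjamini-Hochberg adjustment over all genes tested. Fold changes are on the log2(TPM + 0.1) scale. The fit was also run on simulated data with independent noise in each library. That simulation holds no series effect, so it cannot give the error rate for these libraries. Genes named were all 7 members, up to 5 called genes of the pathway list with the largest change per comparison, and 3 most alike genes per member. A called gene of the pathway list and a shared sequence are not reported here. The members and lists were chosen with earlier results of these data known. In the *Pcgf1* line, deviations from the group means of same-numbered libraries correlated in every pair (r = 0.317 to 0.653, 13400 genes), so same-numbered libraries were compared as pairs. The main fit nevertheless holds no replicate block, so its calls, SEs and intervals also hold the difference between series. Blocked values are given where they change a call. One KO EB library of that line is numbered 4 in its title but 5 in its characteristics, and the title was used. Alternatives were a pseudocount of 1, a mean of at least 1 TPM, median-of-ratios scaling, quantile normalization, the block, models restricted to a comparison's own groups, and leaving out each library, and, chosen after seeing the data, replicates 4 and 5 averaged or numbered by series code in the block. Sequences were read from GENCODE M1 transcripts with Python (version 3.11.15).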

Additional observations from a re-analysis of the deposited data

Results flagged for a closer look

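Of 28 sets of libraries tested in the *Pcgf1* line (7 members in 4 groups of 4 or 5), 5 held a library that stood apart from the rest of its group. For continuous values chance gives about 1 such set in 20. *Lefty2* was lowest in control EB replicate 3, at 106 TPM, against 123 to 131 TPM in the other 4 libraries. The other 4 sets were those of *Cer1*, which was above 0 only in replicate 1 of each group, at 0.128 TPM in control ESCs, 0.1396 TPM in KO ESCs, 0.165 TPM in control EBs and 0.0981 TPM in KO EBs. Where all other libraries are at 0, any value above 0 stands apart, so that rate does not apply to *Cer1*.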

How the results depend on the processing

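In the *Pcgf1* line, the count of members called between control EBs and ESCs was 3, 5 with the replicate block and 2 to 4 without 1 library. Between KO and control ESCs it was 0, and 1 with the block. Between KO and control EBs it was 1, 3 with the block, 0 under median-of-ratios scaling, quantile normalization, a fit of only the 2 groups or replicates 4 and 5 averaged (chosen after seeing the data), and 0 to 1 without 1 library. A replicate block with replicates 4 and 5 numbered by series code, also chosen after seeing the data, gave 5, 1 and 3 in these comparisons. In the Ring1pm line it was 2 between control EBs and ESCs, 3 with the replicate block, which added *Lefty1* (adjusted p = 0.0110), 1 under median-of-ratios scaling or with only the 2 groups, and 0 to 1 without 1 library. There it was 0 between mutant EBs and ESCs and between mutant and control ESCs, and 1 in each with the block (*Gdf3*). This block rested on 2 pairs, whose deviations correlated at 0.258 to 0.381. Between mutant and control EBs it was 1, 3 with the block (*Nodal*, *Tdgf1* and *Gdf3*), 0 under either scaling or with only the 2 groups, and 0 to 0 without 1 library. The other counts did not change the number by over 1.5 times under the alternatives run. Of 70 log2 fold changes of single members, 24 turned sign under some alternative, none of them called, and the cause was not tested. The largest of these was 0.66 in size. Over all genes, the number called moved more. With the block by number it went from 5138 to 9050 (control EBs against ESCs), from 3770 to 7573 (KO EBs against ESCs), from 132 to 1094 (KO against control ESCs), from 402 to 2143 (KO against control EBs) and from 1 to 333 (interaction) in the *Pcgf1* line, and from 960 to 2018, 27 to 102, 515 to 1326, 918 to 2056 and 2 to 4 in the Ring1pm line. With only the groups compared it was 68 for KO against control EBs, and 464, 0, 0 and 169 for the first 4 Ring1pm comparisons. With replicates 4 and 5 averaged it was 29 for KO against control ESCs and 105 for KO against control EBs. With a pseudocount of 1 it was 233 for KO against control ESCs and 5 for mutant EBs against ESCs of the Ring1pm line, where quantile normalization gave 42, and 207 for mutant against control ESCs there. KO against control ESCs had 208 calls with median-of-ratios scaling and 207 with quantile normalization. The interaction had at most 27 calls in the *Pcgf1* line and 13 in the Ring1pm line under the settings that kept all libraries and had no block. The block by series code gave 9040, 7568, 1079, 2148 and 318 calls in the 5 *Pcgf1* comparisons. Depth limits cannot be given for TPM.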
